A study of Homo sapiens with 7 samples.

Results

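The genes described here act in the decay of messenger RNA. They are the 3 members of the ZFP36 family (ZFP36, ZFP36L1 and ZFP36L2), 5 BTG and TOB genes (BTG1, BTG2, BTG3, TOB1 and TOB2) and 2 ZC3H12 genes (ZC3H12A and ZC3H12C). They were taken by name, with earlier results of these data known, from a table of 19978 genes. All 10 were expressed well enough to be among the 14863 genes tested. HEK-293, an established human embryonic kidney cell line, was kept for 48 h in 3 conditions before poly(A)-selected RNA was sequenced. Control cells (2 samples) stayed at pH 7.4. In acidosis (3 samples) the medium was acidified to pH 6.6. The SRPIN340 group (2 samples) was given the selective SR protein kinase inhibitor of that name at 10 µM and pH 7.4. All 3 groups contained DMSO, the solvent of the inhibitor. The samples are repeats of a single cell line at a single time point, so the first hours after the change of medium were not measured.

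ZFP36 (tristetraprolin) and its relatives ZFP36L1 and ZFP36L2 carry a pair of CCCH zinc fingers that bind AU-rich elements in the 3′ untranslated region (3′ UTR) of short-lived mRNAs, and they recruit the CCR4-NOT complex, which removes the poly(A) tail. BTG and TOB proteins share an N-terminal domain that binds the catalytic subunits of CCR4-NOT, and they were first known as antiproliferative proteins. ZC3H12A (Regnase-1) is an endonuclease that cuts stem-loops in mRNAs of the inflammatory response, and ZC3H12C is its paralog. Several of these genes are induced early by stress and growth signals, and the mRNA of ZFP36 is itself a target of its protein.

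The ZFP36 genes themselves hold the sequence that their proteins bind. In the canonical transcripts of GENCODE release 44 (GRCh38), the nonamer TTATTTATT, the best known core of an AU-rich element, occurred once in the 3′ UTR of ZFP36, ZFP36L1, ZFP36L2 and ZC3H12C, 4 of the 10 genes. It occurred in 9.63% of the 14800 tested genes with an annotated 3′ UTR. The shorter heptamer TATTTAT, which lies inside the nonamer, was found in 8 of the 10 genes against 35.9% of tested genes, and only TOB1 and ZC3H12A had none. These shares are descriptions without a test, and the median 3′ UTR of the 10 genes (1894 bases) was longer than that of all tested genes (1352 bases). The sites below show how the elements differ between the ZFP36 genes and the BTG and TOB genes. Capitals mark the nonamer where there is one and otherwise the heptamer nearest to the stop codon, and the sequences are read 5′ to 3′ on the strand of the gene with T for U.
ZFP36, chr19:39409196-39409224, plus strand: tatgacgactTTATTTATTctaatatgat
ZFP36L1, chr14:68788077-68788105, minus strand: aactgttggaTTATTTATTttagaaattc
ZFP36L2, chr2:43223448-43223476, minus strand: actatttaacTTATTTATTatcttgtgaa
ZC3H12C, chr11:110170157-110170185, plus strand: tttacacccaTTATTTATTagagatattt
BTG1, chr12:92140770-92140798, minus strand: aatagatttctTATTTATctgaaggtata
BTG2, chr1:203307528-203307556, plus strand: aaatgaagagcTATTTATatatattattt
BTG3, chr21:17593831-17593859, minus strand: ttggacttgagTATTTATatattgtgcat
TOB2, chr22:41435380-41435408, minus strand: tcgcaagtcctTATTTATatgtgaggctg

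**Figure D1:**
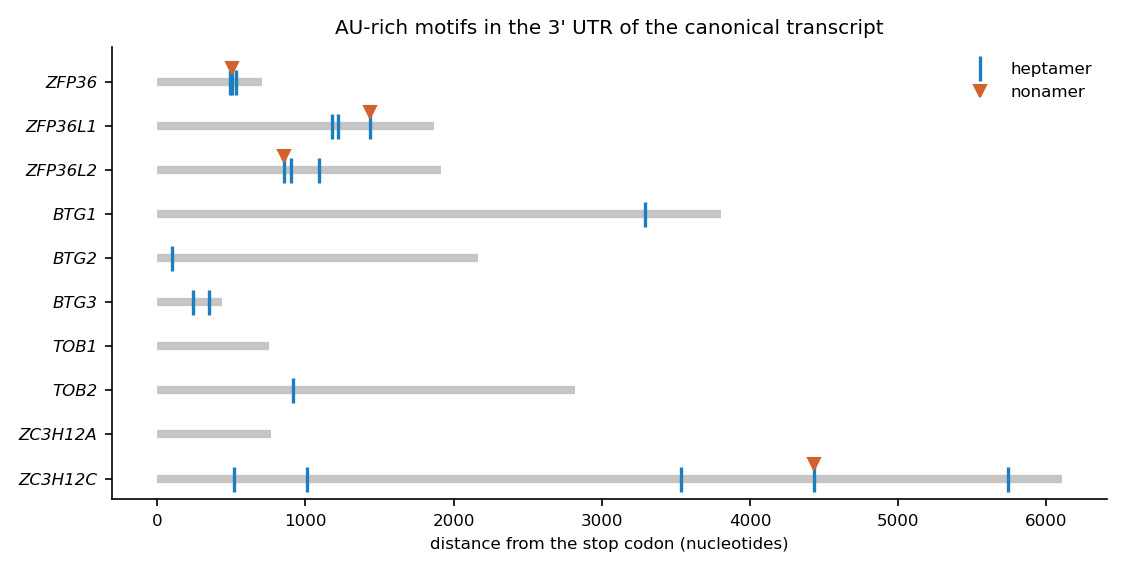
AU-rich motifs along the 3′ UTR of each gene. The horizontal axis is the distance from the stop codon in nucleotides, the grey bar is the length of the 3′ UTR, blue ticks are heptamers and orange triangles nonamers. The 3 heptamers of ZFP36 lie close together, 493 to 533 nucleotides after the stop codon, whereas the 5 of ZC3H12C are spread from 520 to 5744.

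In ZFP36 the 3 heptamers, 1 of them inside the nonamer, were within 40 nucleotides of each other in a short 3′ UTR of 708 bases. ZFP36L1 and ZFP36L2 also had 3 heptamers each, over wider stretches of 3′ UTRs of 1871 and 1917 bases. BTG3 had 2 heptamers in 440 bases, and BTG1, BTG2 and TOB2 had 1 each in 3′ UTRs of 2164 to 3802 bases. A match to these letters is not a measured binding site.

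Libraries held 21788457 to 24110460 counts in the control and SRPIN340 groups and 13615816 to 21370143 in acidosis. Levels below are CPM, that is counts scaled to a fixed library total adjusted by TMM, a factor that sets the bulk of genes equal between samples and averaged 1.18, 1.21 and 0.79 in the control, SRPIN340 and acidosis groups. The 100 most abundant genes took 15.2% to 15.4% of counts at pH 7.4 and 24.1% to 24.8% in acidosis. Of the markers of the cell line, VIM and NEFM were higher and PAX2 was lower in acidosis, and the sum of the 4 (with LHX1) was 887 to 946 CPM at pH 7.4 and 2764 to 2835 CPM in acidosis. Of the blood cell markers, CD3E was at 0 in every sample, PTPRC was at most 0.281 CPM at pH 7.4 and 0.602 to 0.826 CPM in acidosis, and LYZ was 0.369 to 0.456 CPM and 1.38 to 2.26 CPM. The 3 endothelial markers summed to at most 2.32 CPM. The fibroblast markers COL1A1, COL3A1 and DCN, of which COL1A1 held most, summed to 33.9 to 42.5 CPM at pH 7.4 and 59.4 to 67.6 CPM in acidosis. The part of these shifts in the results below was not tested, and in bulk RNA fewer cells of a kind and less RNA per cell cannot be told apart.

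Against control, 7 of the 10 genes rose past both limits of a call in acidosis. A call required an adjusted p below 0.05 (edgeR's quasi-likelihood test, Benjamini-Hochberg) together with a log2 fold change beyond 1 in either direction. None was called lower. Of all genes tested 33.5% were called, 14.4% as higher. At any fold, all 10 genes passed the adjusted p (9 higher, 1 lower), as did 66.7% of all genes. In all 10 the acidosis samples lay wholly above (9) or below (1) the control samples, as they did in 76.5% of all genes, so the lack of overlap does not by itself set these genes apart. The median log2 fold change of the 10 was 2.08, beside -0.052 over all genes. Because the 10 were chosen with earlier results of these data known, the shares and medians beside all genes are descriptions. The genes called were ZFP36, ZFP36L1, ZFP36L2, BTG1, BTG2, BTG3 and ZC3H12A, while TOB1, TOB2 and ZC3H12C stayed within the fold limit.

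**Figure D2:**
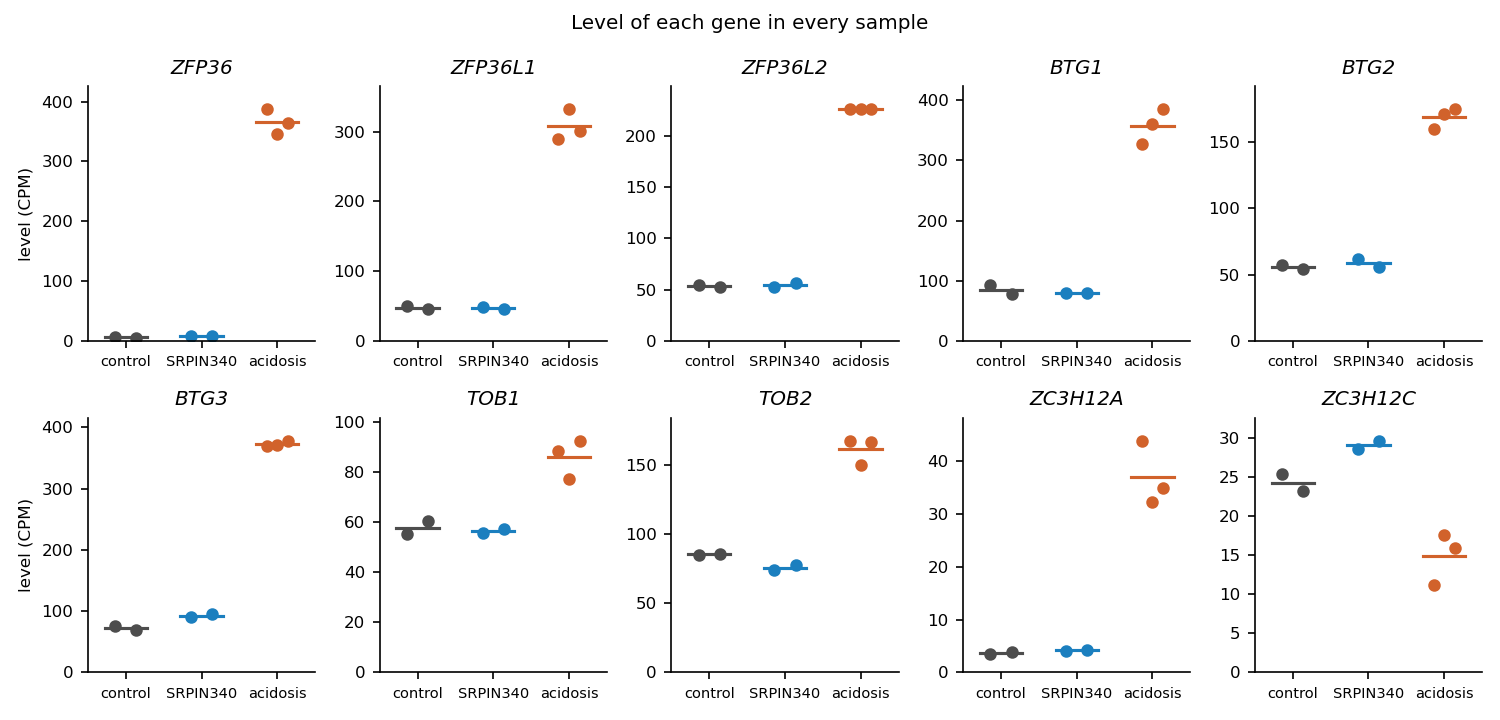
Level of each gene in CPM (vertical axis, from 0, its range set per gene) in the 2 control, 2 SRPIN340 and 3 acidosis samples. Points are samples and lines are group means, and acidosis stands above both other groups for 9 genes and below them for ZC3H12C.

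ZFP36 (ENSG00000128016.7, chromosome 19 of GRCh38, 39406847 to 39409412) moved most among the 10. It was at 6.09 and 5.55 CPM in the control samples and at 387, 346 and 364 CPM in acidosis. From 169 and 158 counts in control it thus went from a weakly expressed gene to an abundant one, and no acidosis sample came near the control level. The log2 fold change was 5.97 (standard error, SE, 0.106, 95% confidence interval 5.74 to 6.21, adjusted p = 4.31e-10), a 62.9-fold rise and the 40th highest among the 14863 genes.

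ZFP36L1 (ENSG00000185650.10, chromosome 14, 68787660 to 68796253) and ZFP36L2 (ENSG00000152518.8, chromosome 2, 43222402 to 43226606) were already expressed in control. ZFP36L1 was at 50.5 and 45.2 CPM in control and 290, 332 and 302 CPM in acidosis. ZFP36L2 was at 54.0 and 52.1 CPM in control and 226 CPM in each of the 3 acidosis samples, with an SD of 0.138 CPM. Both groups were tight and far apart. The log2 fold change was 2.69 (SE 0.0927, adjusted p = 2.04e-08) for ZFP36L1 and 2.09 (SE 0.0731, adjusted p = 2.14e-08) for ZFP36L2. In ZFP36L1 a long non-coding RNA on the same strand overlaps an exon, and in ZFP36L2 one on the other strand does. Whether the counting used strand is not given in the sources used here, so a part of such reads could be assigned to either gene.

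The make-up of the ZFP36 family changed with the rise. Levels were divided by the length of the canonical transcript in kilobases, so that they can be compared between genes, and each gene's share of the family sum was taken within a sample, where the scaling between libraries cancels. ZFP36 held 9.92% ± 0.114 (SD, n = 2) of the sum in control and 56.2% ± 2.47 (SD, n = 3) in acidosis. ZFP36L1 went from 47.2% ± 1.13 to 27.4% ± 2.26, and ZFP36L2 from 42.9% ± 1.24 to 16.4% ± 0.252. The gene with the smallest share in control thus had the largest in every acidosis sample. The family sum itself went from 33.6 ± 1.82 to 373 ± 5.55 CPM per kilobase. Shares are given as descriptions with no test. The order of ZFP36L1 and ZFP36L2 depends on the transcript length taken. With the longest transcript in place of the canonical one, ZFP36L2 held 50.1% and 51.8% in control and ZFP36L1 38.1% and 36.6%. In acidosis ZFP36L2 then held 17.6% to 18.4% and ZFP36L1 18.5% to 22.1%.

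**Figure D3:**
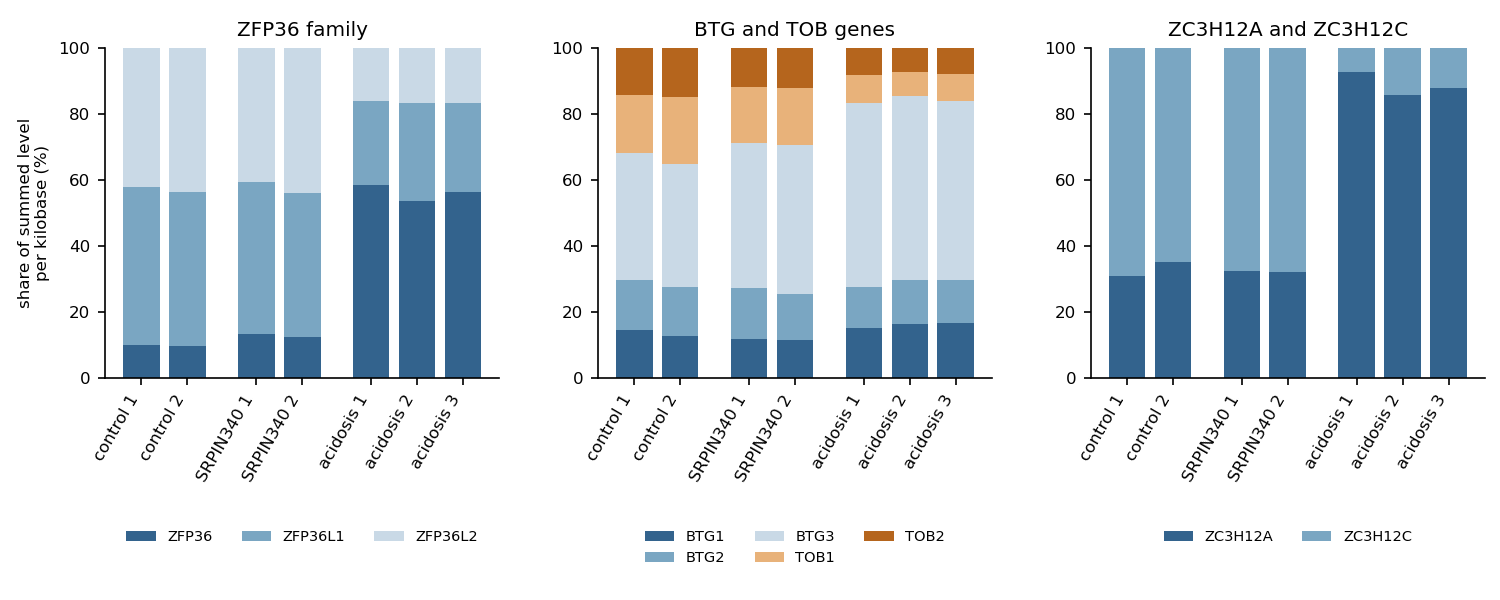
Share of each gene in the summed level per kilobase of its family (vertical axis, %), 1 bar per sample. ZFP36 takes 53.6% to 58.5% of its family in the acidosis samples against 9.84% to 10.0% in control, BTG3 54.2% to 55.8% of the BTG and TOB genes against 37.2% to 38.5%, and ZC3H12A 85.8% to 92.8% of its pair against 30.9% to 35.1%.

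The 3 BTG genes were all called higher. BTG3 (ENSG00000154640.15, chromosome 21, 17593653 to 17612945) was at 75.4 and 69.7 CPM in control and 369, 371 and 378 CPM in acidosis, with a log2 fold change of 2.36 (SE 0.0714, adjusted p = 1.03e-08). BTG1 (ENSG00000133639.6, chromosome 12, 92140278 to 92145846) was at 93.2 and 77.5 CPM in control and 326, 361 and 385 CPM in acidosis, with a log2 fold change of 2.07 (SE 0.103, adjusted p = 1.51e-07). BTG2 (ENSG00000159388.6, chromosome 1, 203305491 to 203309602), a target of p53, was at 57.2 and 54.4 CPM in control and 160, 171 and 175 CPM in acidosis, a smaller rise of 1.59 on the log2 scale (SE 0.0835, adjusted p = 2.14e-07). In each of them the lowest acidosis sample was far above the highest control sample. BTG1 and BTG3 overlap antisense non-coding RNAs, BTG1 also one on its own strand, and both have a processed pseudogene (BTG1P1 and BTG3P1) that could share reads.

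TOB1 and TOB2, whose longer proteins also bind poly(A)-binding protein, moved less. TOB2 (ENSG00000183864.5, chromosome 22, 41433494 to 41446801) was at 84.8 and 85.9 CPM in control and 168, 150 and 167 CPM in acidosis, with a log2 fold change of 0.92 (SE 0.0791, adjusted p = 5.05e-06). It passed the test and fell just short of the fold limit. TOB1 (ENSG00000141232.5, chromosome 17, 50862223 to 50867978) was at 55.2 and 60.4 CPM in control and 88.7, 77.2 and 92.7 CPM in acidosis, with a log2 fold change of 0.58 (SE 0.0991, adjusted p = 0.000562). This difference depends on the scaling, since with libraries scaled by their total count alone it was 0.00114 (adjusted p = 0.992) while the median of all genes stood at -0.626, a difference of 0.627 from that median. TOB1 overlaps an antisense non-coding RNA, and TOB2 has a processed pseudogene (TOB2P1).

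Per kilobase, BTG3 held 37.9% ± 0.929 of the summed level of the 5 BTG and TOB genes in control (SD, n = 2) and 55.2% ± 0.906 in acidosis (SD, n = 3). The shares of TOB1 and TOB2 were smaller in acidosis. The share of TOB1 was 19.0% ± 1.79 in control and 8.04% ± 0.637 in acidosis, and that of TOB2 14.5% ± 0.566 and 7.77% ± 0.462. BTG1 and BTG2 moved less, in opposite directions. The share of BTG1 was 12.6% to 14.5% in control and 15.0% to 16.8% in acidosis, and that of BTG2 15.0% to 15.1% and 12.5% to 13.2%. The sum of the 5 went from 136 ± 4.14 to 479 ± 14.2 CPM per kilobase.

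The ZC3H12 pair moved in opposite directions. ZC3H12A (ENSG00000163874.11, chromosome 1, 37474580 to 37484377), the endonuclease Regnase-1, was at 3.42 and 3.79 CPM in control and 43.8, 32.2 and 34.9 CPM in acidosis. Its log2 fold change was 3.36 (SE 0.185, adjusted p = 2.79e-07), a 10.3-fold rise that rests on 95 and 108 counts in control. ZC3H12C (ENSG00000149289.11, chromosome 11, 110093392 to 110171841) was at 25.4 and 23.2 CPM in control and 11.2, 17.6 and 15.9 CPM in acidosis. It fell by 0.72 on the log2 scale (SE 0.176, 95% confidence interval -1.11 to -0.322, adjusted p = 0.00497), short of the fold limit, though with scaling by total count alone the value was -1.29, past it and -0.665 from the median of all genes. The acidosis samples of ZC3H12C were spread over a wider relative range than those of ZFP36 or BTG3.

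Of the pair's summed level per kilobase, ZC3H12A held 33% ± 2.99 in control (SD, n = 2) and 88.8% ± 3.62 in acidosis (SD, n = 3), and the sum went from 4.13 ± 0.0755 to 15.6 ± 1.91 CPM per kilobase. The other relatives were scarce. ZC3H12B was at 4.36 and 3.05 CPM in control and 1.07, 0.734 and 1.46 CPM in acidosis, on 8 to 18 counts, and was called lower with a log2 fold change of -1.76 (SE 0.342, adjusted p = 0.00124). ZC3H12D, at 0.737 to 1.12 CPM in control and acidosis, had a log2 fold change of 0.27 with a 95% confidence interval of -0.705 to 1.24 (adjusted p = 0.605). BTG4, an oocyte gene, had at most 2 counts in any sample and was not tested.

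**Figure D4:**
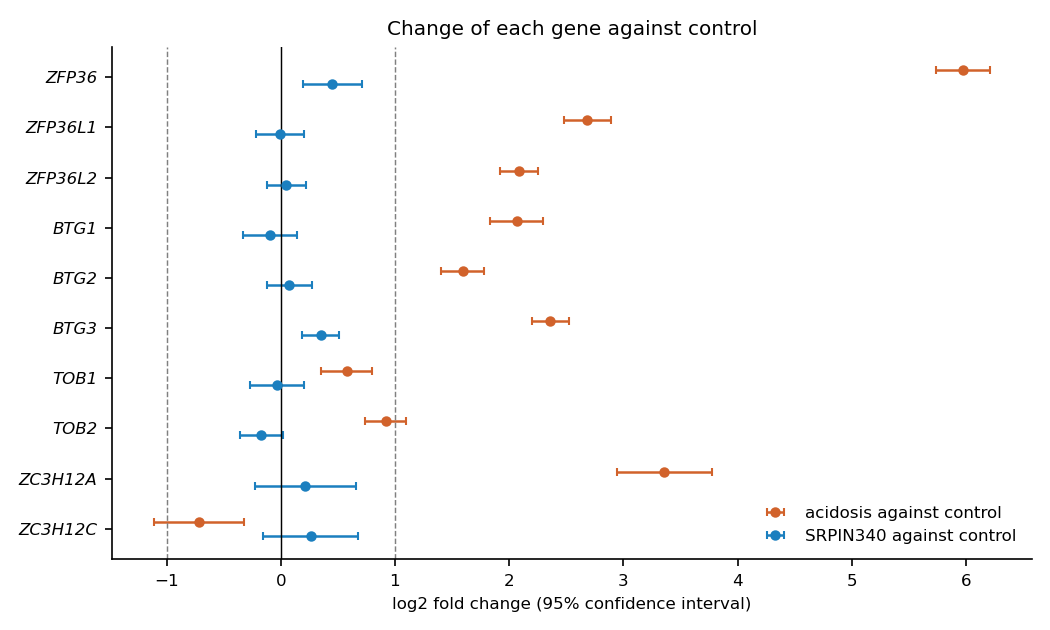
Log2 fold change against control of each gene (horizontal axis) with its 95% confidence interval, for acidosis in orange and SRPIN340 in blue. Dashed lines mark a log2 fold change of 1 in either direction, and 7 acidosis values and 0 SRPIN340 values lie past them.

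Ordered by level per kilobase, BTG3 was the most abundant of the 10 in control (51.4 CPM per kilobase), followed by TOB1 (25.8), BTG2 (20.5), TOB2 (19.7), BTG1 (18.4), ZFP36L1 (15.9), ZFP36L2 (14.4), ZFP36 (3.33), ZC3H12C (2.77) and ZC3H12A (1.36). The range of BTG1 overlapped those of TOB2 and ZFP36L1, its neighbours in this order, and also that of BTG2. In acidosis BTG3 was still the highest (264 CPM per kilobase), but ZFP36 was the second (209), ahead of ZFP36L1 (102), BTG1 (77.2), BTG2 (61.7), ZFP36L2 (61.1), TOB1 (38.5), TOB2 (37.2), ZC3H12A (13.9) and ZC3H12C (1.70). There BTG2 and ZFP36L2 overlapped, and so did TOB1 and TOB2. The place of ZFP36L1 depends on the transcript length taken. With the longest transcript in place of the canonical one it was at 9.96 to 11.1 in control, below ZFP36L2 (14.1 to 14.6). In acidosis ZFP36L1 was then at 63.9 to 73.2, overlapping BTG1 (70.5 to 83.2) and BTG2 (58.6 to 64.0).

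Differences with SRPIN340 were small. Of the 10, 0 were called in edgeR's test against control and 0 with DESeq2, while 2 had an unadjusted p under 0.05, and 0.323% of all genes were called. At any fold 1 gene, BTG3, passed the adjusted p, as did 2.3% of all genes. The SRPIN340 samples lay wholly above the control samples for 4 genes and below them for 1, against 54.1% of all genes without overlap. The median log2 fold change of the 10 was 0.06.

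BTG3 was at 90.0 and 95.02 CPM with SRPIN340 against 75.4 and 69.7 CPM in control, a log2 fold change of 0.35 (SE 0.0725, 95% confidence interval 0.188 to 0.514, adjusted p = 0.0429). The adjusted p ranged from 0.00254 to 0.318 over the alternative settings. It missed the limit without control replicate 1 (0.108) or 2 (0.219), SRPIN340 replicate 1 (0.210) or 2 (0.318), or acidosis replicate 1 (0.0673) or 3 (0.0623). ZFP36 was at 8.33 and 7.59 CPM against 6.09 and 5.55 CPM, a log2 fold change of 0.45 (95% confidence interval 0.199 to 0.708, adjusted p = 0.0760). In both genes the SRPIN340 samples lay above the control samples, and in ZFP36 the difference did not pass the adjustment. TOB2, at 73.8 and 77.9 CPM against 84.8 and 85.9 CPM, lay below control in both samples, with a log2 fold change of -0.17 (95% confidence interval -0.361 to 0.0198, adjusted p = 0.338).

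For the other genes the intervals bound how large an effect of the inhibitor these samples allow. ZFP36L1 was at 49.1 and 46.4 CPM with SRPIN340, and the 95% confidence interval of its log2 fold change reached from -0.215 to 0.207. For ZFP36L2 it reached from -0.121 to 0.219, for BTG1 from -0.334 to 0.141, for BTG2 from -0.121 to 0.273 and for TOB1 from -0.271 to 0.208. The scarce ZC3H12 genes were less precise, with -0.228 to 0.659 for ZC3H12A and -0.154 to 0.680 for ZC3H12C. None of the 7 intervals reached a log2 fold change of 1, and none of the adjusted p-values, from 0.520 to 0.992, passed.

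Compared directly with SRPIN340, acidosis gave 8 genes called higher, TOB2 among them with a log2 fold change of 1.09 (adjusted p = 1.69e-06). Of all genes tested 34.6% were called in this comparison, 14.9% as higher. All 10 genes passed the adjusted p at any fold, as did 67.8% of all genes. ZFP36 differed by 5.52, ZFP36L1 by 2.69, BTG3 by 2.01 and ZC3H12A by 3.14 on the log2 scale. ZC3H12C was lower by 0.98 with an adjusted p of 0.000710 and sits at the fold limit, which it crossed in 7 of 14 alternative settings. TOB1 was higher by 0.61 (adjusted p = 0.000396), but with scaling by total count alone its value was -0.00707 against a median of -0.665 over all genes. This comparison uses the same acidosis samples as the one against control and is no independent repeat of it.

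The partners of these proteins were taken from lists of the decay pathway. None of the 11 genes of the CCR4-NOT complex, the deadenylase that ZFP36, BTG and TOB proteins recruit, was called in acidosis. Of all genes 33.5% were called, and 66.7% passed the adjusted p at any fold. The log2 fold changes of the CCR4-NOT genes lay between -0.58 and 0.66 with a median of -0.12. Values of this size depend on the scaling, since with total count alone the median of all genes was -0.626. The CCR4-NOT genes under that scaling are not given here. In this complex 3 passed the adjusted p as lower and 3 as higher. The 3 were CNOT7 and CNOT8, catalytic subunits bound by BTG and TOB proteins, at 0.66 (adjusted p = 9.30e-05) and 0.60 (adjusted p = 0.000716), and CNOT6L, another catalytic subunit, at 0.63 (adjusted p = 0.00117). CNOT6, at -0.58 (adjusted p = 0.000840), and the scaffold CNOT1, at -0.44 (adjusted p = 0.00124), were lower, as was CNOT11 at -0.33 (adjusted p = 0.0406). These CNOT genes are named because only 6 passed, after their values were seen.

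Outside that complex the picture was mixed. The counts below stand beside 33.5% of all genes called in acidosis, 14.4% as higher. Of 10 other deadenylases and poly(A)-binding protein genes, 6 were called higher and 1 lower, with a median of 1.35. Nocturnin (NOCT), related in sequence to deadenylases, rose by 2.30 (adjusted p = 3.69e-07) and PAIP2, an inhibitor of poly(A)-binding protein, by 2.10 (adjusted p = 2.02e-08), while the poly(A)-specific ribonuclease PARN fell by 2.11 (adjusted p = 1.78e-06). Of 17 genes of decapping and 5′-to-3′ decay, 5 were called higher and 2 lower, with a median of 0.29. The decapping cofactors split, DCP1A rising by 1.98 (adjusted p = 1.81e-07) and DCP1B falling by 2.71 (adjusted p = 1.24e-06), and LSM7, a subunit of the LSM ring, rose by 1.53 (adjusted p = 1.34e-06). Of 17 genes of the RNA exosome and its helper complex 1 was called higher and 2 lower, with a median of -0.15. These were EXOSC6, a subunit of the exosome ring, at 1.00, DIS3L, a cytoplasmic exosome nuclease, at -1.11, and SKIC8, a subunit of the Ski complex, at -1.03. EXOSC6 sat at the fold limit and was not called without control replicate 2 (0.967), SRPIN340 replicate 1 (0.998) or 2 (0.999) or acidosis replicate 3 (0.935), nor was SKIC8 without acidosis replicate 1 (-0.981).

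Among the other proteins that bind AU-rich elements, 13 of 14 were tested, 2 were called higher and 1 lower, and the median was 0.45. YBX1, an abundant mRNA-packaging protein, rose by 1.88 (adjusted p = 2.10e-08) and CELF1 by 1.57 (adjusted p = 6.75e-07), while HNRNPD (AUF1) fell by 1.37 (adjusted p = 7.07e-07). HNRNPD was also lower with SRPIN340, at 358 and 341 CPM against 536 and 442 CPM, a log2 fold change of -0.48 (adjusted p = 0.0387) that is within the fold limit. Of 6 Roquin and other immune decay factors 3 were called higher, with a median of 0.67. They were Roquin-1 (RC3H1) at 1.78, Roquin-2 (RC3H2) at 1.19 and ARID5A, an RNA-binding protein that opposes Regnase-1, at 1.06, or at 0.996 and no longer called without control replicate 1. Over the 6 decay lists together, 74 of 75 genes were tested and 23 were called in acidosis, 17 higher and 6 lower (5 higher and 17 lower with scaling by total count alone), with a median of 0.15, so the share called was close to the 33.5% of all genes. With SRPIN340 0 of the 74 were called by edgeR and 0 by DESeq2, and 15 had an unadjusted p under 0.05.

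**Figure D5:**
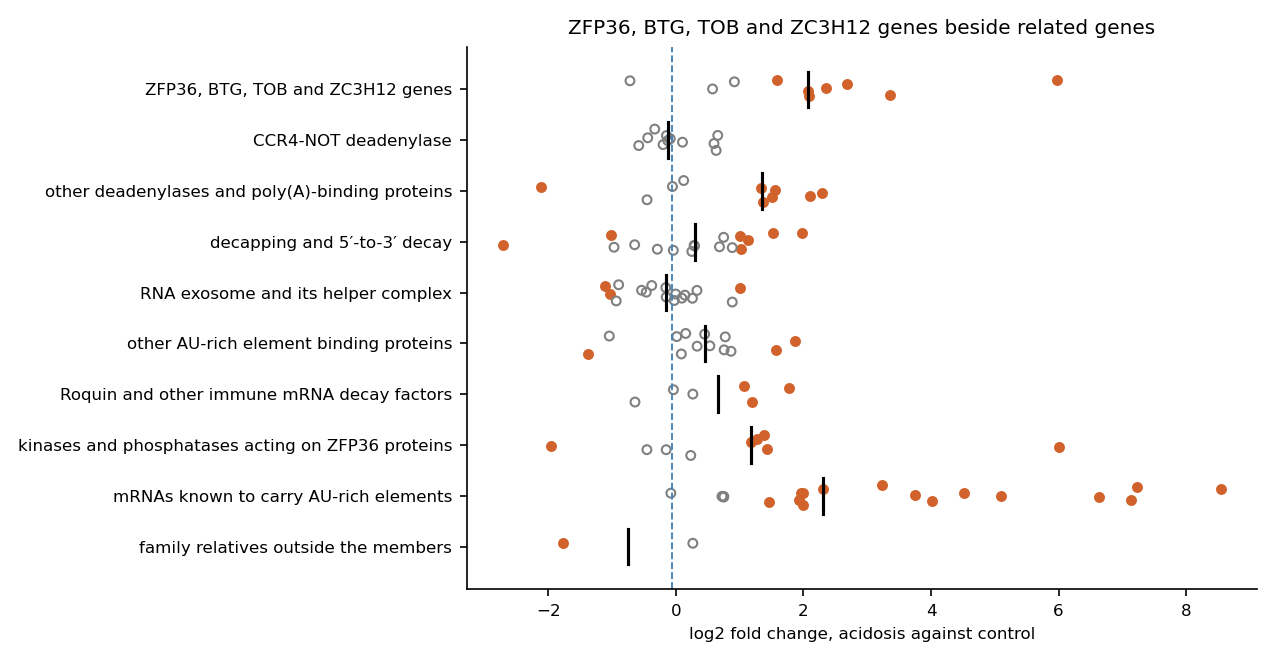
Log2 fold change in acidosis against control (horizontal axis) of the 10 genes and of 9 lists of related genes. Filled points were called, open points were not, black bars are list medians and the dashed line is the median of all genes. The 10 genes have a median of 2.08 and CCR4-NOT one of -0.12.

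ZFP36 proteins are inhibited when kinases downstream of p38 phosphorylate them, and phosphatases reverse this. The list of 9 kinases and phosphatases taken here also holds p38 itself (MAPK14 and MAPK11), AKT1 and DUSP1. Of the 9, 5 were called higher and 1 lower, with a median of 1.18. Of all genes 14.4% were called higher and 33.5% were called in all. DUSP1, a phosphatase that inactivates p38, was at 18.3 and 19.2 CPM in control and 1153, 1219 and 1241 CPM in acidosis, a log2 fold change of 6.01 (SE 0.0989, adjusted p = 3.05e-10). PPP2CB, a catalytic subunit of PP2A, rose by 1.43 (adjusted p = 6.15e-07). Of the kinases downstream of p38, MAPKAPK3 fell by 1.96 (adjusted p = 4.63e-06), to a mean of 6.50 CPM, while MAPKAPK2, named after its values were seen, rose by 1.27 (adjusted p = 3.35e-07), to a mean of 140 CPM. RNA levels do not show the phosphorylation of any protein.

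The mRNAs known to carry AU-rich elements, which ZFP36 proteins can destabilize, were mostly called higher in acidosis and never lower. Of 23 such genes 19 were tested, 15 were called higher and 0 lower (edgeR, as above, with 14.4% of all genes called higher), and their median was 2.31. The list was chosen with results of these data known. IL6, IL1B, IL10 and CSF2, at no more than 0.475 CPM in any sample, were not tested. TNF was at most 0.0720 CPM in control and 0.184 CPM with SRPIN340, and CXCL2 at most 0.108 and 0.190 CPM. Both passed the count filter only through acidosis (3.61 to 4.59 and 13.6 to 20.2 CPM), so they could only be called higher. CXCL8 was at 0.612 and 0.632 CPM in control and 231, 220 and 254 CPM in acidosis, a log2 fold change of 8.54 (SE 0.153, adjusted p = 4.31e-10). FOS was at 0.829 and 0.913 CPM in control and 117, 125 and 128 CPM in acidosis, a log2 fold change of 7.14 (SE 0.166, adjusted p = 2.56e-09). CXCL2 had 3 counts in each control sample and 340, 148 and 192 in acidosis, so its call rests on a control level near the counting floor. These mRNAs and the genes encoding their destabilizing proteins were thus high in the same samples. Of the 19 tested, 12 had the nonamer and 16 the heptamer in the 3′ UTR. With SRPIN340 CXCL8 was at 1.81 and 1.48 CPM, a log2 fold change of 1.39 (adjusted p = 0.0227), the only call of this list in that comparison. It rests on 49 and 39 counts with SRPIN340 and on fewer in control. The call was lost when either control or either SRPIN340 sample was left out.

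Across all genes the nonamer went with a small difference. Of 1425 tested genes with at least 1 nonamer, 17.1% were called higher and 16.2% lower in acidosis, with a median log2 fold change of 0.09, against 14.2% and 19.4% with a median of -0.06 for the 13375 genes without one. With 2 or more nonamers (346 genes) 21.4% were called higher and 11.6% lower, and the median was 0.24. Genes with the nonamer have longer 3′ UTRs (median 3110 against 1224 bases). Below 500 bases of 3′ UTR, 14.3% of 56 genes with the nonamer and 16.2% of 3453 without it were called higher. Only this share was in the other order there, since 7.14% and 16.2% were called lower and the medians were 0.39 and 0.06. The shares called higher were 24.4% of 123 and 13.6% of 2434 from 500 to 1000 bases. They were 18.5% of 260 and 13.9% of 3073 from 1000 to 2000, and 16% of 432 and 12.6% of 2921 from 2000 to 4000. Above that they were 15.9% of 554 and 13.9% of 1494. These are descriptions with no test, and the shift is small beside the log2 fold changes of the 4 nonamer genes described here, 3 of which were called higher and 1 of which, ZC3H12C, was lower.

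Of the elements searched for in the promoters of the genes, only the GC box recurred. RefSeq (GRCh38.p14) gave windows of 300 bases, from 250 before to 50 after a start, for 9 of the 10 genes, 12 windows in all, and ZFP36L2 had none. The AP-1 element TGACTCA and the CArG box, the site of SRF, were in 0 of the 12 on either strand, beside 4.95% and 1.29% of 35116 windows. The CRE TGACGTCA, the site of CREB and ATF proteins, was in 1, a second start of ZFP36L1, beside 1.85%. The GC box GGGCGG, which overlaps none of the others, was in 8 of the 12 windows, beside 45%. ZC3H12A had 5 copies, and ZFP36, BTG2, BTG3 and a second start of TOB1 had 3 each. TOB2 and a start of ZC3H12C had 2 each, and BTG1 had 1. The 250 bases before the start are shown for ZFP36 and ZC3H12A, the genes that rose most, and for the ZFP36L1 start with the CRE. Capitals mark GC boxes on either strand and, in ZFP36L1, the CRE.
ZFP36, chr19:39406597-39406846, plus strand: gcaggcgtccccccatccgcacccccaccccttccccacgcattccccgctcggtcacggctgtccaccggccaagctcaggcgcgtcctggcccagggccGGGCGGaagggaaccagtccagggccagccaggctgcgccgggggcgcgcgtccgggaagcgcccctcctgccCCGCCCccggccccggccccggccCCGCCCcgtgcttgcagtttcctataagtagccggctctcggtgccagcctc
ZC3H12A, chr1:37474330-37474579, plus strand: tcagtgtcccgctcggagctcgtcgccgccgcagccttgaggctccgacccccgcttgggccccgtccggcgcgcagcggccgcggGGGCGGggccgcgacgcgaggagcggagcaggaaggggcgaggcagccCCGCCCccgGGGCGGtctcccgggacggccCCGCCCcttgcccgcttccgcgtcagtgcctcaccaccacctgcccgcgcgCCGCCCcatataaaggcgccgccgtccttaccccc
ZFP36L1, chr14:68793417-68793666, minus strand: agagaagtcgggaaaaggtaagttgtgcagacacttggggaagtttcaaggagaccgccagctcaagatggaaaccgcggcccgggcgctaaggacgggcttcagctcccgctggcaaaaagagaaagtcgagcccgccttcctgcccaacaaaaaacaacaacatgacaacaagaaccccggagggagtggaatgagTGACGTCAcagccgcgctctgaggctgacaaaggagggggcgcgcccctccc
The ZFP36 and ZC3H12A sequences are rich in G and C, with several GC boxes each. A missing match says only that these letters are not in the window, and sites farther away were not searched.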

How the data were processed

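The 10 genes and the lists of related genes were chosen with earlier results of these data known. The authors trimmed the reads (Trimmomatic 0.39, Trim Galore 0.6.6 per the labels), ran Salmon 1.5.1 on the Gencode GRCh38.p13 transcripts and aggregated its output by gene (tximport). What they deposited are estimated counts for each gene, 1 column per sample, without normalization between samples. The methods call the samples biological repeats, and p-values measure the spread between them. All replicate pairs differed by more than counting noise.

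These values were rounded and analysed in R 4.3.3 by the quasi-likelihood test of edgeR 4.0.16, with TMM scaling, filterByExpr, all 7 samples in one fit and Benjamini-Hochberg adjustment over 14863 genes. Calls required an adjusted p below 0.05 and a log2 fold change beyond 1 in either direction. Standard errors and 95% confidence intervals come from the test statistic. The test was checked on simulated counts in which few genes were changed, as many up as down. That check does not cover a shift in scaling between groups such as the one in acidosis. Alternatives were DESeq2 1.42.0 (the tool of the authors), RLE size factors, total count scaling, other filters on low counts (none, or a mean of 6 CPM), only the groups compared, no fold limit, a replicate block, each replicate left out and the longest transcript.

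All 10 genes are named in every comparison. From each list at most 3 called genes with the largest change in acidosis and 2 with SRPIN340 are named, if the groups do not overlap. Of 19978 identifiers 19977 matched GENCODE release 44, on GRCh38, which also gave positions, lengths and 3′ UTRs. The authors' Gencode release is not given in the sources used here. Genes are plotted as deposited counts scaled to CPM. One item of the marker lists is not reported here.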

Additional observations from a re-analysis of the deposited data

How the results depend on the processing

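The 7 calls in acidosis against control stayed calls under DESeq2, RLE size factors, total count scaling, both filters, the fit of only the groups compared, the replicate block and each replicate left out. The lowest log2 fold change among those settings was 1.02, for BTG2 with total count scaling, and ZFP36 ranged from 5.40 to 6.04. Total count scaling moved the median of all genes to -0.626 and the calls over all genes from 2145 higher and 2840 lower to 815 higher and 5202 lower (43.0% to 13.5% higher), and it brought TOB2 to 0.344 and ZC3H12C to -1.29, a call. Against SRPIN340 it turned TOB1 from 0.61 to -0.00707 and took BTG2 (0.902) and TOB2 (0.475) below the fold limit. It gave 5 higher and 17 lower calls in the decay lists in acidosis, in place of 17 and 6. Of the list genes that the report names as the largest called changes, it took LSM7 (0.952), EXOSC6 (0.430), CELF1 (0.993), RC3H2 (0.618), ARID5A (0.488) and PPP2CB (0.858) below the fold limit. Against SRPIN340 the number of the 10 genes called ranged from 7, with total count scaling, to 9. The ninth was ZC3H12C (from -1.59 to -0.796), which crossed the limit in some settings, also when acidosis replicate 2, acidosis replicate 3 or SRPIN340 replicate 1 was left out. Without the fold limit, 54 genes of the decay lists passed in acidosis in place of 23, and with SRPIN340 1 of the 10 genes and 3 of the decay lists in place of 0. With the longest transcript in place of the canonical one, the share of ZFP36 in its family was 11.8% in control and 61.8% in acidosis.

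The labels number the repeats but do not say that a number marks a shared culture, and deviations of same-numbered samples correlated between -0.115 and 0.063, so the numbers are not taken to pair the samples. With the replicate block, 7 genes were called in acidosis and 0 with SRPIN340, and BTG3 with SRPIN340 no longer passed (adjusted p = 0.130). Depth limits ZFP36 and ZC3H12A most in the control and SRPIN340 samples, where they had 95 to 226 counts, and ZC3H12C in acidosis, with 185 to 192.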
